A study of Mus musculus with 12 samples.

Results

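The cyclin, mitosis and spindle genes described here are 40 genes that drive the division of a cell, and they were taken by their symbols from a table of 13942 genes measured by RNA sequencing in mouse retinal pigment epithelium (RPE). All 40 symbols were found, and all 40 passed the filter on low values that 13523 genes of the table passed. The RPE is the pigmented layer behind the retina, which nourishes the photoreceptors and takes up their shed outer segments. The 4 groups, of 3 libraries each, were RPE with a conditional knockout of Sox9 (cKO) at postnatal day 5 (P5), wild-type RPE (WT) at P5, cKO RPE at embryonic stage E15.5 and WT RPE at E15.5, all from C57BL/6J mice. SOX9 is a transcription factor found in the RPE and in retinal progenitors. The sources used here do not give the driver of the deletion, the exons deleted, the way RPE was separated from its neighbours or whether replicates were separate animals, so p-values measure only the spread between these libraries. In bulk RNA, fewer dividing cells and less of these transcripts per dividing cell cannot be told apart.

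A cell commits to division when D-type cyclins with CDK4 and E-type cyclins with CDK2 inactivate the retinoblastoma proteins and free the E2F factors. Cyclin A, cyclin B and CDK1 then carry it into mitosis, where Aurora and Polo kinases, kinesins and kinetochore proteins build the spindle and attach the chromosomes, and the anaphase-promoting complex ends mitosis. RPE cells divide in the embryo and are mostly quiescent in the adult eye. Many mitotic genes share promoter elements named CHR, to which the DREAM and MMB-FOXM1 complexes bind, often next to CCAAT boxes.

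RefSeq promoter windows, of 250 bases before and 50 bases from the annotated start on (GRCm38.p6), were found for 31 of the 40 genes, 35 windows in all. Stretches before the start are shown for 5 genes that fell with age and hold a CHR motif next to CCAAT boxes, and for Cdk2, the only gene of the 40 that was not called lower with age in either genotype. Capitals mark every match to the CHR motif TTTGAA and its variant form TTCGAA, to the CCAAT box and to the E2F motifs TTTCGCGC, TTTGGCGC and TTTCCCGC, on either strand. On the other strand a CHR motif reads TTCAAA, while a CCAAT box reads ATTGG and the last E2F motif reads GCGGGAAA. Each is written 5′ to 3′ in the direction of the gene and ends at the base before its start.
Cdk1: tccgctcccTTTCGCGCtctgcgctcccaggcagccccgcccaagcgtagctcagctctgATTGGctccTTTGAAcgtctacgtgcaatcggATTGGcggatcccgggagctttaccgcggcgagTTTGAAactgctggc
Top2a: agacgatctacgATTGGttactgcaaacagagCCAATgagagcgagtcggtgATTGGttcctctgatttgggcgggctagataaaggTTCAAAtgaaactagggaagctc
Ube2c: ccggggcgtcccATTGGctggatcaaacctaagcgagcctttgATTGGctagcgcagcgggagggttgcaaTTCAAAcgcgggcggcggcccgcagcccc
Cdc20: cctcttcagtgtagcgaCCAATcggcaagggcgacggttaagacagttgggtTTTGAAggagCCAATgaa
Kif11: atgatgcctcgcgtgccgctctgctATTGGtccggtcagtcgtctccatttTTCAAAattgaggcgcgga
Cdk2: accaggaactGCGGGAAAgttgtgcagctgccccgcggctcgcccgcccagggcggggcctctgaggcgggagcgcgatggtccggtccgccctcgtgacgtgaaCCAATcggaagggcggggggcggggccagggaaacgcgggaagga
The Cdk1 window lies at chr10:69352913-69353052 (minus strand), the Top2a window at chr11:99024190-99024299 (minus strand) and the Ube2c window at chr2:164769829-164769928 (plus strand). The Cdc20 window lies at chr4:118437344-118437413 (minus strand), the Kif11 window at chr19:37376312-37376381 (plus strand) and the Cdk2 window at chr10:128705052-128705201 (minus strand). A CHR motif stood in 22 of the 35 windows, 62.9%, against 19.2% of all 32851 promoter windows and 13.4% of the 13429 windows of genes in the table. CCAAT stood in 25 of the 35 windows, 71.4%, against 37.4% of all windows and 37.2% of those of genes in the table. An E2F motif stood in 3 windows, those of Cdk1, Cdk2 and a start of E2f2, which is 8.57% against 1.84% and 3.19%. The TATA motif TATAAA stood in 1 window, 2.86%, against 13.6% of all windows and 7.36% of those of genes in the table. The 20 genes with a CHR motif in a window had a median log2 fold change with age (P5 over E15.5) of -1.42 in cKO RPE and -1.46 in WT RPE, against -1.37 and -1.41 for the 11 genes without one. This is a description with no test.

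Each value is a count per gene, quantile-normalised by the authors over all libraries and set to 50 where lower, so each library has a median of 367.4 and the depth behind a value is unknown. Group means are given ± SD (n = 3 libraries), and log2 fold changes, on the log2(value + 1) scale, ± SE of the fit. In brackets after a fold stand its log2 fold change and adjusted p. The count of Sox9 was not lower in the libraries labelled cKO. At P5 it was 2136, 2384 and 2928 in libraries labelled cKO, against 964, 1499.5 and 1111 in WT libraries, a log2 fold change of 1.07 ± 0.17 (SE, limma, adjusted p = 0.0316), opposite to the label. This call was lost without P5 WT replicate 1 (0.93), P5 cKO replicate 2 (1.09) or 3 (0.95), or any of the E15.5 libraries, and with the replicate number as a block (1.07, adjusted p = 0.0874). It was lost too with library weights (0.68, adjusted p = 0.236), with a mean of at least 4 times the floor required (1.07, adjusted p = 0.0848), with only the libraries compared (1.07, adjusted p = 1) and without P5 WT replicate 3 and P5 cKO replicate 2 together (1.06, adjusted p = 0.105). At E15.5 the difference was -0.05 ± 0.17 (adjusted p = 1). The labels are used as given, and each direction for genotype below rests on them. Of 15 RPE markers in the table, Rpe65 lay at the floor in every P5 cKO and E15.5 library and Kcnj13 in every E15.5 library. Summed, RPE markers reached 146392 to 234504 in P5 cKO, 119835 to 233792 in P5 WT, 30454 to 52415 in E15.5 cKO and 41143 to 56681 in E15.5 WT libraries. Markers of other tissues were present as well: 12 mesenchyme markers, including collagens, summed to between 283722 and 650749 in every library. Across genes, libraries of a group correlated at 0.916 to 0.978 in P5 cKO and 0.85 to 0.968 in P5 WT, against 0.986 to 0.988 in E15.5 cKO and 0.991 to 0.994 in E15.5 WT.

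With age, the division genes fell together in both genotypes. In cKO RPE 37 of the 40 fell and none rose, where 26.1% of all genes tested fell and 17.6% rose, and in WT RPE 39 of the 40 fell and none rose, where 23.2% fell and 15% rose (limma over all genes, adjusted p under 0.05). The median log2 fold change, P5 over E15.5, was -1.41 in cKO RPE (2.66-fold lower) and -1.43 in WT RPE (2.70-fold lower), against -0.08 and -0.07 over all genes tested. Of all genes tested, 3.82% and 3.76% lay below those medians. At least 2-fold lower were 32 genes in cKO RPE and 35 in WT RPE, against 9.04% and 7.87% of all genes. All 3 P5 libraries lay below all 3 E15.5 libraries for 39 of the 40 genes in cKO RPE, against 34.1% of all genes, and for 39 of the 40 in WT RPE, against 29.4%. The exception was Cdk2 in both genotypes. At P5 the median gene still stood at 47.1%, 27.8% and 36.0% of its E15.5 mean in the 3 cKO libraries and at 46.3%, 37.9% and 25.7% in the 3 WT libraries. Cdc25c was the gene of the 40 that reached the floor of the table, in 3 P5 libraries.

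**Figure D1:**
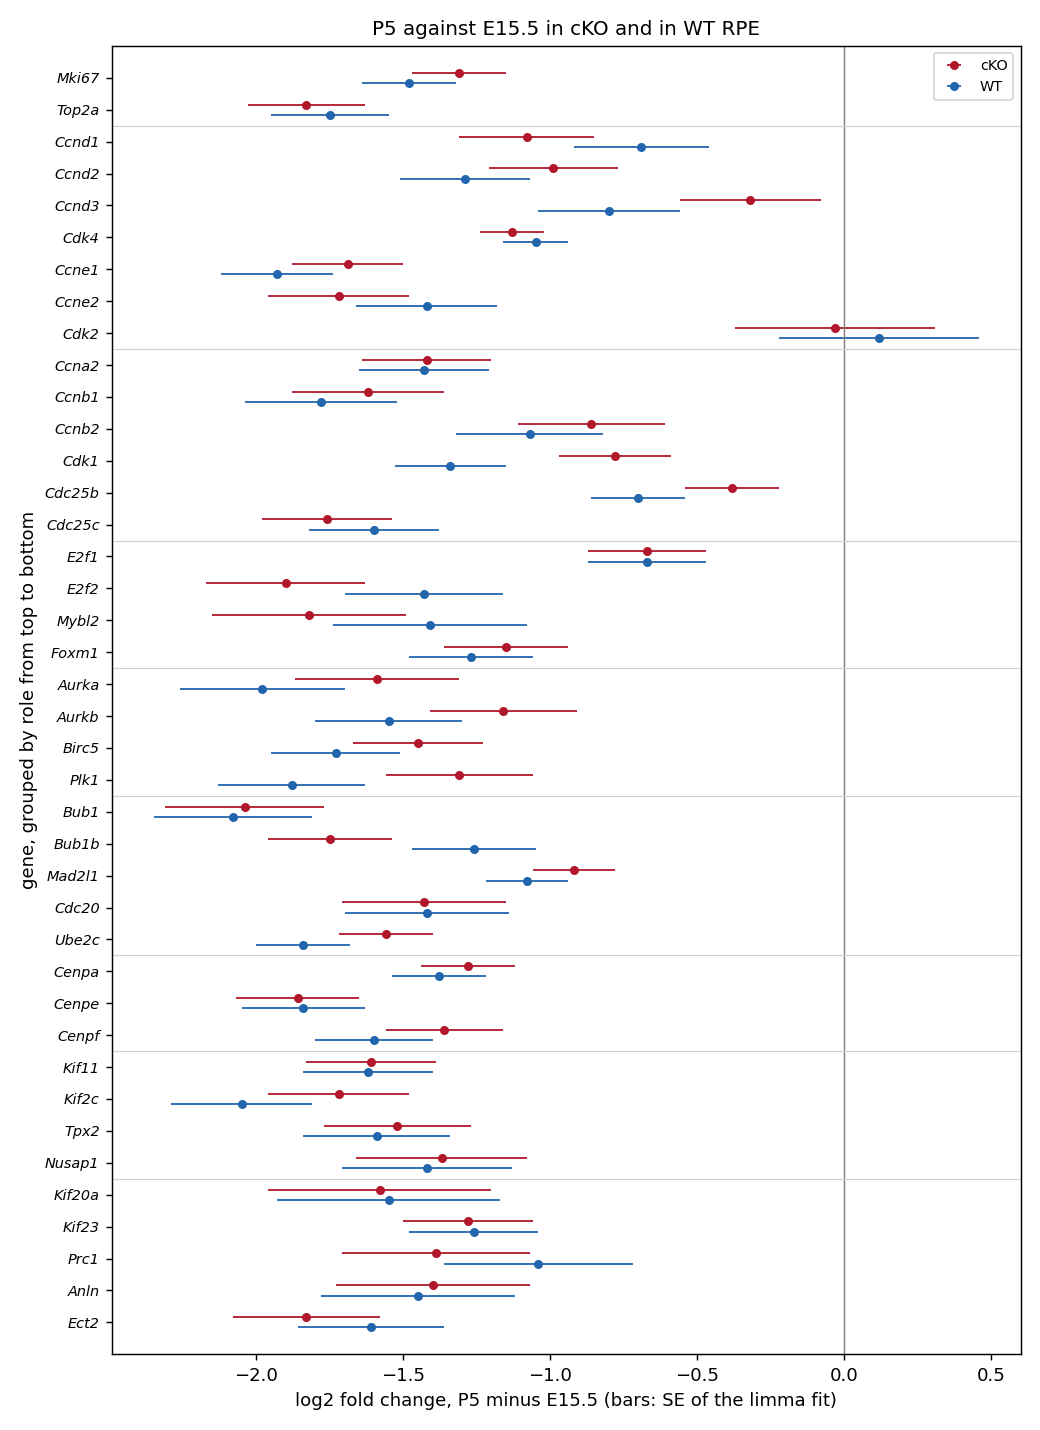
Log2 fold change of each of the 40 genes, P5 over E15.5, in cKO and in WT RPE, with the standard error of the limma fit as bars, grouped by role. Most genes lie between -1 and -2 in both genotypes, Bub1 is lowest at -2.04 and -2.08, and Cdk2 lies at -0.03 and 0.12.

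**Figure D2:**
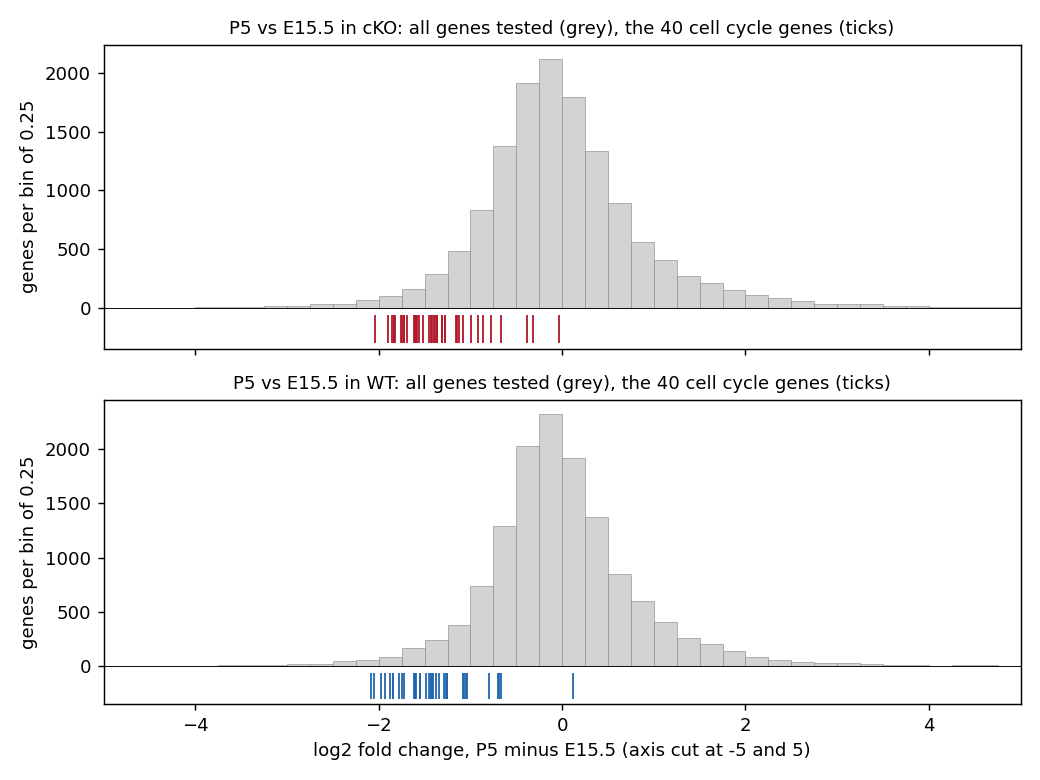
Distribution of the log2 fold change, P5 over E15.5, of all 13523 genes tested, with the 40 division genes marked, in cKO and in WT RPE. The division genes gather on the lower side, with medians of -1.41 and -1.43.

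Both proliferation markers fell. Mki67 encodes Ki-67, which coats chromosomes in cycling cells and is the usual stain for proliferation. In cKO RPE, Mki67 stood at 1823, 1313 and 1463 at P5, against 3836, 3686 and 3800.4 at E15.5. WT libraries had 1618, 1419.6 and 1065 at P5, against 3919, 3463 and 3891 at E15.5. Every P5 library lay below every E15.5 library, and within each age the genotypes overlapped. Mki67 fell 2.48-fold in cKO RPE (-1.31 ± 0.16, adjusted p = 0.000138) and 2.78-fold in WT RPE (-1.48 ± 0.16, adjusted p = 8.34e-05). Top2a, the topoisomerase that untangles replicated DNA, averaged 895 ± 276 in P5 cKO and 928 ± 179.5 in P5 WT libraries, against 3094 ± 82.3 in E15.5 cKO and 3091 ± 172 in E15.5 WT libraries. Top2a fell 3.56-fold in cKO RPE (-1.83 ± 0.20, adjusted p = 7.31e-05) and 3.37-fold in WT RPE (-1.75 ± 0.20, adjusted p = 0.00011).

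Of the 7 G1 cyclins and kinases, 5 fell in cKO RPE and 6 in WT RPE, with medians of -1.08 and -1.05. E-type cyclins, which start DNA replication with CDK2, changed most. In cKO RPE, Ccne1 stood at 192, 127 and 169 at P5, against 481, 519.9 and 560.4 at E15.5. WT libraries had 163, 152 and 109.7 at P5, against 525, 528 and 550 at E15.5. The highest of the 6 P5 libraries was at 192 and the lowest of the 6 E15.5 libraries at 481. Ccne1 fell 3.23-fold in cKO RPE (-1.69 ± 0.19, adjusted p = 8.27e-05) and 3.81-fold in WT RPE (-1.93 ± 0.19, adjusted p = 4.17e-05). Ccne2 averaged 74.6 ± 27.4 in P5 cKO and 86.6 ± 10.9 in P5 WT libraries, against 237.5 ± 10.1 in E15.5 cKO and 234 ± 39.8 in E15.5 WT libraries. Ccne2 fell 3.29-fold in cKO RPE (-1.72 ± 0.24, adjusted p = 0.000333) and 2.67-fold in WT RPE (-1.42 ± 0.24, adjusted p = 0.0012). Ccnd2, a D-type cyclin, averaged 2987 ± 595 in P5 cKO and 2416 ± 761 in P5 WT libraries, against 5880.2 ± 367 in E15.5 cKO and 5695 ± 314 in E15.5 WT libraries. Ccnd2 fell 1.99-fold in cKO RPE (-0.99 ± 0.22, adjusted p = 0.005) and 2.45-fold in WT RPE (-1.29 ± 0.22, adjusted p = 0.00134). Cdk4, their kinase partner, fell 2.19-fold in cKO RPE (-1.13 ± 0.11, adjusted p = 3.14e-05) and 2.07-fold in WT RPE (-1.05 ± 0.11, adjusted p = 5.57e-05) and had the smallest standard error of the 40 genes. In cKO RPE, Cdk4 stood at 2957, 3035.5 and 2849 at P5, against 6603, 6603 and 6169 at E15.5. WT libraries had 2777, 3519.8 and 3277 at P5, against 6337, 6337 and 7053 at E15.5. The 6 P5 libraries stayed between 2777 and 3519.8, and the 6 E15.5 libraries between 6169 and 7053.

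Ccnd1, the D-type cyclin most used in the developing eye, fell too, but in WT RPE the call was fragile. In cKO RPE, Ccnd1 stood at 1302, 799 and 834 at P5, against 1703, 2422 and 2005.5 at E15.5. WT libraries had 1405, 1344 and 2248 at P5, against 2880.3, 2513 and 2490.3 at E15.5. Ccnd1 fell 2.12-fold in cKO RPE (-1.08 ± 0.23, adjusted p = 0.00391) and 1.62-fold in WT RPE (-0.69 ± 0.23, adjusted p = 0.0376). The highest P5 WT library, 2248, stood close under the lowest E15.5 WT library, 2490.3. The WT call was lost with the replicate number as a block (-0.69, adjusted p = 0.0573), with only the libraries compared (-0.69, adjusted p = 0.0583), with recentred libraries (-0.59, adjusted p = 0.0708), with the mean photoreceptor value as a term (-0.75, adjusted p = 0.0702), and without P5 WT replicate 1 or 2, any E15.5 WT library or E15.5 cKO replicate 3. The photoreceptor mean did not overlap between the ages, so a term for it can take up part of any change with age. A call lost with that term, here or below, is therefore no check of the call. Ccnd3, the third D-type cyclin, was called lower in WT RPE only. In cKO RPE, Ccnd3 stood at 3846, 2875 and 3852 at P5, against 4306, 4306 and 4465 at E15.5. WT libraries had 3098, 3386 and 1619 at P5, against 4354, 4689 and 4411.5 at E15.5. Ccnd3 had a log2 fold change of -0.32 ± 0.24 in cKO RPE (adjusted p = 0.294) and -0.80 ± 0.24 in WT RPE (adjusted p = 0.021). In both genotypes the P5 libraries lay below the E15.5 libraries. The cKO value passed the threshold without P5 WT replicate 3 (-0.32, adjusted p = 0.0379), and the WT value was -0.47 without that library, whose Ccnd3 value of 1619 was the lowest of all. The WT call held there (adjusted p = 0.0128), but was lost without any of the 3 E15.5 WT libraries, with only the libraries compared (-0.80, adjusted p = 0.0843) and with the mean photoreceptor value as a term (-0.19, adjusted p = 0.436). The interaction of age and genotype for Ccnd3 was 0.48 ± 0.33 (adjusted p = 1).

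Cdk2 encodes the kinase of cyclins E and A. It was the gene not called lower in either genotype. In cKO RPE, Cdk2 stood at 1299, 1062 and 1174 at P5, against 1143, 1247 and 1216 at E15.5. WT libraries had 1950.3, 1587 and 581 at P5, against 1086.5, 1111 and 1168 at E15.5. The cKO ages overlapped. At P5 the WT libraries spread widely: 2 lay above all E15.5 WT libraries, and replicate 3 lay below them. Cdk2 had a log2 fold change of -0.03 ± 0.34 in cKO RPE (adjusted p = 0.947) and 0.12 ± 0.34 in WT RPE (adjusted p = 0.807). Without P5 WT replicate 3, Cdk2 was called higher at P5 in WT RPE, with a log2 fold change of 0.65 (limma, adjusted p = 0.0011). Cdk2 (chromosome 10, 128697939 to 128705031, GRCm38, minus strand) overlaps the melanosome gene Pmel on the opposite strand, sharing 34 of its 6219 exonic bases in GENCODE M21. The sources used here do not say whether the counting used strand, so reads of the shared stretch cannot be assigned. Pmel stood at 39044, 33277 and 60565 in P5 cKO and 51373, 51373 and 24971 in P5 WT libraries, against 20182, 12599 and 24110 in E15.5 cKO and 23336, 17593 and 16579 in E15.5 WT libraries. At P5 the library lowest in Cdk2 was also the lowest in Pmel in each genotype. The cKO library highest in Pmel, replicate 3, had the middle Cdk2 value of its group. At E15.5 the library lowest in Pmel had the highest Cdk2 value in each genotype. The part of Pmel reads in the Cdk2 value was not tested. Others of the 40 genes also share exonic bases with an annotated gene on the opposite strand, among them Ccnd1 with LTO1, 1100 of 4709 bases, and Kif20a with Cdc23, 1271 of 4338 bases.

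Of the 6 genes of mitotic cyclins, CDK1 and CDC25 phosphatases, 5 fell in cKO RPE and 6 in WT RPE, with medians of -1.14 and -1.39. Cyclin B1, encoded by Ccnb1, is the partner of CDK1 that starts mitosis. In cKO RPE, Ccnb1 stood at 276, 162 and 226 at P5, against 682, 711 and 610 at E15.5. WT libraries had 256, 228 and 125 at P5, against 689.7, 602 and 717.5 at E15.5. Within each age the genotypes overlapped. Ccnb1 fell 3.07-fold in cKO RPE (-1.62 ± 0.26, adjusted p = 0.00078) and 3.43-fold in WT RPE (-1.78 ± 0.26, adjusted p = 0.000528). Cdk1, the kinase itself, averaged 664 ± 61.6 in P5 cKO and 474 ± 133 in P5 WT libraries, against 1142 ± 112 in E15.5 cKO and 1168 ± 79.5 in E15.5 WT libraries. Cdk1 fell 1.72-fold in cKO RPE (-0.78 ± 0.19, adjusted p = 0.00757) and 2.53-fold in WT RPE (-1.34 ± 0.19, adjusted p = 0.000423). Cdc25c, a phosphatase that activates CDK1, had 82.3, 50 and 50 in P5 cKO and 77.1, 58.4 and 50 in P5 WT libraries, against 196, 227 and 184 in E15.5 cKO and 184.5, 168 and 209 in E15.5 WT libraries. Because 2 P5 cKO libraries and 1 P5 WT library lay at the floor of 50, its changes of -1.76 ± 0.22 in cKO RPE and -1.60 ± 0.22 in WT RPE understate any larger one. Ccna2, cyclin A2 of S phase and early mitosis, averaged 468 ± 111 in P5 cKO and 494 ± 142 in P5 WT libraries, against 1227 ± 32.1 in E15.5 cKO and 1296 ± 56 in E15.5 WT libraries. Ccna2 fell 2.67-fold in cKO RPE (-1.42 ± 0.22, adjusted p = 0.000551) and 2.70-fold in WT RPE (-1.43 ± 0.22, adjusted p = 0.000614). Ccnb2 fell least of the cyclins A and B, by 1.81-fold in cKO RPE and 2.10-fold in WT RPE, and its cKO call was lost without P5 cKO replicate 2 (-0.68), P5 cKO replicate 3 (-0.79) or E15.5 cKO replicate 2 (-0.84). With the mean photoreceptor value as a term, which is confounded with age, both Ccnb2 calls were lost. The values were -0.03 in cKO RPE (adjusted p = 0.838) and -0.30 in WT RPE (adjusted p = 0.0649).

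CDC25B is the phosphatase that activates CDK1 at the centrosome, and Cdc25b was called lower in WT RPE only. In cKO RPE, Cdc25b stood at 740.3, 484 and 643.5 at P5, against 822, 793 and 774 at E15.5. WT libraries had 592, 519.8 and 411 at P5, against 847, 810.2 and 793 at E15.5. In both genotypes all P5 libraries lay below all E15.5 libraries. Cdc25b had a log2 fold change of -0.38 ± 0.16 in cKO RPE (adjusted p = 0.0885) and -0.70 ± 0.16 in WT RPE (adjusted p = 0.00726). The cKO value passed the threshold without P5 WT replicate 3 (-0.38, adjusted p = 0.0412) or without P5 cKO replicate 1 (-0.51, adjusted p = 0.0296) and with library weights (-0.49, adjusted p = 0.0208). With the mean photoreceptor value as a term, which is confounded with age, the cKO value was 0.10 (adjusted p = 0.502). The WT call was lost with that term (-0.25, adjusted p = 0.107). The interaction for Cdc25b was 0.32 ± 0.23 (adjusted p = 1).

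All 4 transcription factors of the cycle fell in both genotypes, with medians of -1.48 in cKO RPE and -1.34 in WT RPE. E2f2, an activator of the genes of DNA synthesis, led this group in cKO RPE. In cKO RPE, E2f2 stood at 109, 54.8 and 63.8 at P5, against 251, 275 and 297 at E15.5. WT libraries had 129.8, 70.9 and 105.5 at P5, against 239, 290.1 and 281 at E15.5. The highest P5 library was at 129.8 and the lowest E15.5 library at 239. E2f2 fell 3.73-fold in cKO RPE (-1.90 ± 0.27, adjusted p = 0.000367) and 2.70-fold in WT RPE (-1.43 ± 0.27, adjusted p = 0.00224). Mybl2, the B-MYB subunit of the MMB complex, averaged 128.5 ± 57.7 in P5 cKO and 162 ± 69.2 in P5 WT libraries, against 429 ± 33 in E15.5 cKO and 406 ± 18.8 in E15.5 WT libraries. Mybl2 fell 3.52-fold in cKO RPE (-1.82 ± 0.33, adjusted p = 0.00162) and 2.66-fold in WT RPE (-1.41 ± 0.33, adjusted p = 0.00756). Foxm1, which switches on the G2 and M genes with MMB, averaged 419 ± 93.3 in P5 cKO and 398 ± 119 in P5 WT libraries, against 914.5 ± 28.6 in E15.5 cKO and 930.5 ± 33.6 in E15.5 WT libraries. Foxm1 fell 2.21-fold in cKO RPE (-1.15 ± 0.21, adjusted p = 0.00142) and 2.41-fold in WT RPE (-1.27 ± 0.21, adjusted p = 0.000937). E2f1 fell by 0.67 on the log2 scale in both genotypes, and its calls depended on single libraries. In cKO RPE that call was lost without P5 cKO replicate 2 (-0.48) or E15.5 cKO replicate 2 (-0.60) or 3 (-0.62), and in WT RPE without P5 WT replicate 2 (-0.59) or E15.5 WT replicate 2 (-0.66) or 3 (-0.59). With the photoreceptor term, which is confounded with age, both E2f1 calls were lost. The values were -0.25 in cKO RPE (adjusted p = 0.371) and -0.28 in WT RPE (adjusted p = 0.302).

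All 4 mitotic kinases and passenger proteins fell in both genotypes, with medians of -1.38 in cKO RPE and -1.81 in WT RPE. Aurka, the Aurora kinase of the spindle poles, changed most in WT RPE. In cKO RPE, Aurka stood at 193, 123 and 152 at P5, against 438, 485 and 471 at E15.5. WT libraries had 164, 139.6 and 70.2 at P5, against 472, 437 and 486 at E15.5. The lowest P5 library was WT replicate 3, and all 6 P5 libraries lay below all 6 E15.5 libraries. Aurka fell 3.02-fold in cKO RPE (-1.59 ± 0.28, adjusted p = 0.00115) and 3.94-fold in WT RPE (-1.98 ± 0.28, adjusted p = 0.000391). Plk1, the Polo kinase that acts from mitotic entry to cytokinesis, averaged 373.5 ± 58.8 in P5 cKO and 276 ± 102 in P5 WT libraries, against 921 ± 2.9 in E15.5 cKO and 963 ± 8.9 in E15.5 WT libraries. Plk1 fell 2.48-fold in cKO RPE (-1.31 ± 0.25, adjusted p = 0.00189) and 3.68-fold in WT RPE (-1.88 ± 0.25, adjusted p = 0.000277). Birc5, which encodes survivin, the partner of Aurora B in the chromosomal passenger complex, averaged 258 ± 39.8 in P5 cKO and 237 ± 77.3 in P5 WT libraries, against 701 ± 15.6 in E15.5 cKO and 760.2 ± 63.7 in E15.5 WT libraries. Birc5 fell 2.73-fold in cKO RPE (-1.45 ± 0.22, adjusted p = 0.000547) and 3.32-fold in WT RPE (-1.73 ± 0.22, adjusted p = 0.000232). Aurkb itself fell 2.24-fold in cKO RPE (-1.16 ± 0.25, adjusted p = 0.00411) and 2.93-fold in WT RPE (-1.55 ± 0.25, adjusted p = 0.000951). None of the 4 was called in the interaction of age and genotype, where their values ranged from 0.28 to 0.57.

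All 5 genes of the spindle checkpoint and the anaphase-promoting complex fell in both genotypes, with medians of -1.56 in cKO RPE and -1.42 in WT RPE. Bub1, a checkpoint kinase of the kinetochore, had the lowest fold change of the 40 genes in both genotypes. In cKO RPE, Bub1 stood at 128, 74.5 and 95.9 at P5, against 391, 392 and 421 at E15.5. WT libraries had 130.1, 87.8 and 56.8 at P5, against 381, 355 and 369 at E15.5. The highest P5 library was at 130.1 and the lowest E15.5 library at 355. Bub1 fell 4.10-fold in cKO RPE (-2.04 ± 0.27, adjusted p = 0.000254) and 4.21-fold in WT RPE (-2.08 ± 0.27, adjusted p = 0.00027). Ube2c, the ubiquitin-conjugating enzyme of the anaphase-promoting complex, stood apart between the ages in every library. In cKO RPE, Ube2c stood at 593, 557 and 606 at P5, against 1865, 1761.5 and 1574 at E15.5. WT libraries had 519, 638 and 383 at P5, against 1704, 1746 and 1946 at E15.5. Ube2c fell 2.95-fold in cKO RPE (-1.56 ± 0.16, adjusted p = 5.32e-05) and 3.57-fold in WT RPE (-1.84 ± 0.16, adjusted p = 2.37e-05). Cdc20, the activator of that complex at anaphase, averaged 315.5 ± 114 in P5 cKO and 309 ± 116 in P5 WT libraries, against 817 ± 34.5 in E15.5 cKO and 793 ± 21.3 in E15.5 WT libraries. Cdc20 fell 2.70-fold in cKO RPE (-1.43 ± 0.28, adjusted p = 0.00224) and 2.68-fold in WT RPE (-1.42 ± 0.28, adjusted p = 0.00268). Bub1b, which encodes the checkpoint protein BUBR1, fell 3.37-fold in cKO RPE (-1.75 ± 0.21, adjusted p = 0.000118) and 2.39-fold in WT RPE (-1.26 ± 0.21, adjusted p = 0.000974). Mad2l1, its partner in the checkpoint complex, fell 1.89-fold in cKO RPE (-0.92 ± 0.14, adjusted p = 0.000448) and 2.11-fold in WT RPE (-1.08 ± 0.14, adjusted p = 0.000217).

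All 3 kinetochore genes fell in both genotypes, with medians of -1.36 in cKO RPE and -1.60 in WT RPE. Cenpe encodes the kinesin that moves chromosomes to the spindle equator. In cKO RPE, Cenpe stood at 249, 154.5 and 203 at P5, against 724, 752 and 702 at E15.5. WT libraries had 249.9, 209.8 and 144.5 at P5, against 748, 661 and 710.4 at E15.5. The highest P5 library was at 249.9 and the lowest E15.5 library at 661. Cenpe fell 3.64-fold in cKO RPE (-1.86 ± 0.21, adjusted p = 9.56e-05) and 3.58-fold in WT RPE (-1.84 ± 0.21, adjusted p = 0.000124). Cenpf, a large protein of the outer kinetochore, averaged 318 ± 56.7 in P5 cKO and 285 ± 75.3 in P5 WT libraries, against 811 ± 84.4 in E15.5 cKO and 846 ± 68.4 in E15.5 WT libraries. Cenpf fell 2.56-fold in cKO RPE (-1.36 ± 0.20, adjusted p = 0.000468) and 3.04-fold in WT RPE (-1.60 ± 0.20, adjusted p = 0.000213). Cenpa, the histone H3 variant that marks the centromere, averaged 377 ± 42.3 in P5 cKO and 350.4 ± 78.5 in P5 WT libraries, against 911 ± 43 in E15.5 cKO and 897 ± 92 in E15.5 WT libraries. Cenpa fell 2.42-fold in cKO RPE (-1.28 ± 0.16, adjusted p = 0.000201) and 2.59-fold in WT RPE (-1.38 ± 0.16, adjusted p = 0.000159).

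All 4 spindle motors and microtubule proteins fell in both genotypes, with medians of -1.56 in cKO RPE and -1.61 in WT RPE. Kif2c encodes MCAK, a kinesin that takes microtubules apart at the kinetochore. In cKO RPE, Kif2c stood at 209, 116 and 154 at P5, against 480.1, 542 and 516 at E15.5. WT libraries had 151.5, 146 and 89.3 at P5, against 554, 476 and 546 at E15.5. The highest P5 library was at 209 and the lowest E15.5 library at 476. Kif2c fell 3.29-fold in cKO RPE (-1.72 ± 0.24, adjusted p = 0.000315) and 4.15-fold in WT RPE (-2.05 ± 0.24, adjusted p = 0.000137). Kif11, the motor that pushes the spindle poles apart, averaged 339 ± 103 in P5 cKO and 331 ± 77.6 in P5 WT libraries, against 1006 ± 87.3 in E15.5 cKO and 1002 ± 61.9 in E15.5 WT libraries. Kif11 fell 3.05-fold in cKO RPE (-1.61 ± 0.22, adjusted p = 0.000311) and 3.08-fold in WT RPE (-1.62 ± 0.22, adjusted p = 0.000349). Tpx2, which activates Aurora A on the spindle, averaged 498 ± 168 in P5 cKO and 476 ± 132 in P5 WT libraries, against 1377 ± 54.4 in E15.5 cKO and 1394.5 ± 109 in E15.5 WT libraries. Tpx2 fell 2.87-fold in cKO RPE (-1.52 ± 0.25, adjusted p = 0.000814) and 3.01-fold in WT RPE (-1.59 ± 0.25, adjusted p = 0.000741). Nusap1, a microtubule bundling protein, fell 2.58-fold in cKO RPE (-1.37 ± 0.29, adjusted p = 0.00344) and 2.67-fold in WT RPE (-1.42 ± 0.29, adjusted p = 0.00328).

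All 5 genes of the central spindle and cytokinesis fell in both genotypes, with medians of -1.40 in cKO RPE and -1.45 in WT RPE. Ect2 encodes the exchange factor that turns on RhoA at the cleavage furrow. In cKO RPE, Ect2 stood at 177, 87.8 and 101 at P5, against 400.3, 434 and 412 at E15.5. WT libraries had 149, 132 and 97.5 at P5, against 438, 344.5 and 365 at E15.5. The highest P5 library was at 177 and the lowest E15.5 library at 344.5. Ect2 fell 3.55-fold in cKO RPE (-1.83 ± 0.25, adjusted p = 0.000296) and 3.05-fold in WT RPE (-1.61 ± 0.25, adjusted p = 0.000731). Kif20a, the kinesin that carries the passenger complex to the midzone, averaged 185 ± 93.7 in P5 cKO and 165 ± 82.6 in P5 WT libraries, against 515 ± 55.9 in E15.5 cKO and 450.5 ± 71.8 in E15.5 WT libraries. Kif20a fell 2.98-fold in cKO RPE (-1.58 ± 0.38, adjusted p = 0.00725) and 2.93-fold in WT RPE (-1.55 ± 0.38, adjusted p = 0.00904). Anln, the actin-binding anillin of the contractile ring, averaged 249 ± 107 in P5 cKO and 232 ± 98.9 in P5 WT libraries, against 622 ± 18.6 in E15.5 cKO and 595 ± 18.5 in E15.5 WT libraries. Anln fell 2.64-fold in cKO RPE (-1.40 ± 0.33, adjusted p = 0.0068) and 2.74-fold in WT RPE (-1.45 ± 0.33, adjusted p = 0.0065). Kif23, of the centralspindlin complex, fell 2.44-fold in cKO RPE (-1.28 ± 0.22, adjusted p = 0.00111) and 2.40-fold in WT RPE (-1.26 ± 0.22, adjusted p = 0.00147). Prc1, which bundles midzone microtubules, fell 2.62-fold in cKO RPE (-1.39 ± 0.32, adjusted p = 0.00591) and 2.05-fold in WT RPE (-1.04 ± 0.32, adjusted p = 0.0275). Its WT call was lost without P5 WT replicate 2 (-0.99) or 3 (-0.89) or E15.5 WT replicate 1 (-1.03) or 3 (-0.96). It was lost too with the photoreceptor term (-0.18, adjusted p = 0.586), which is confounded with age.

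**Figure D3:**
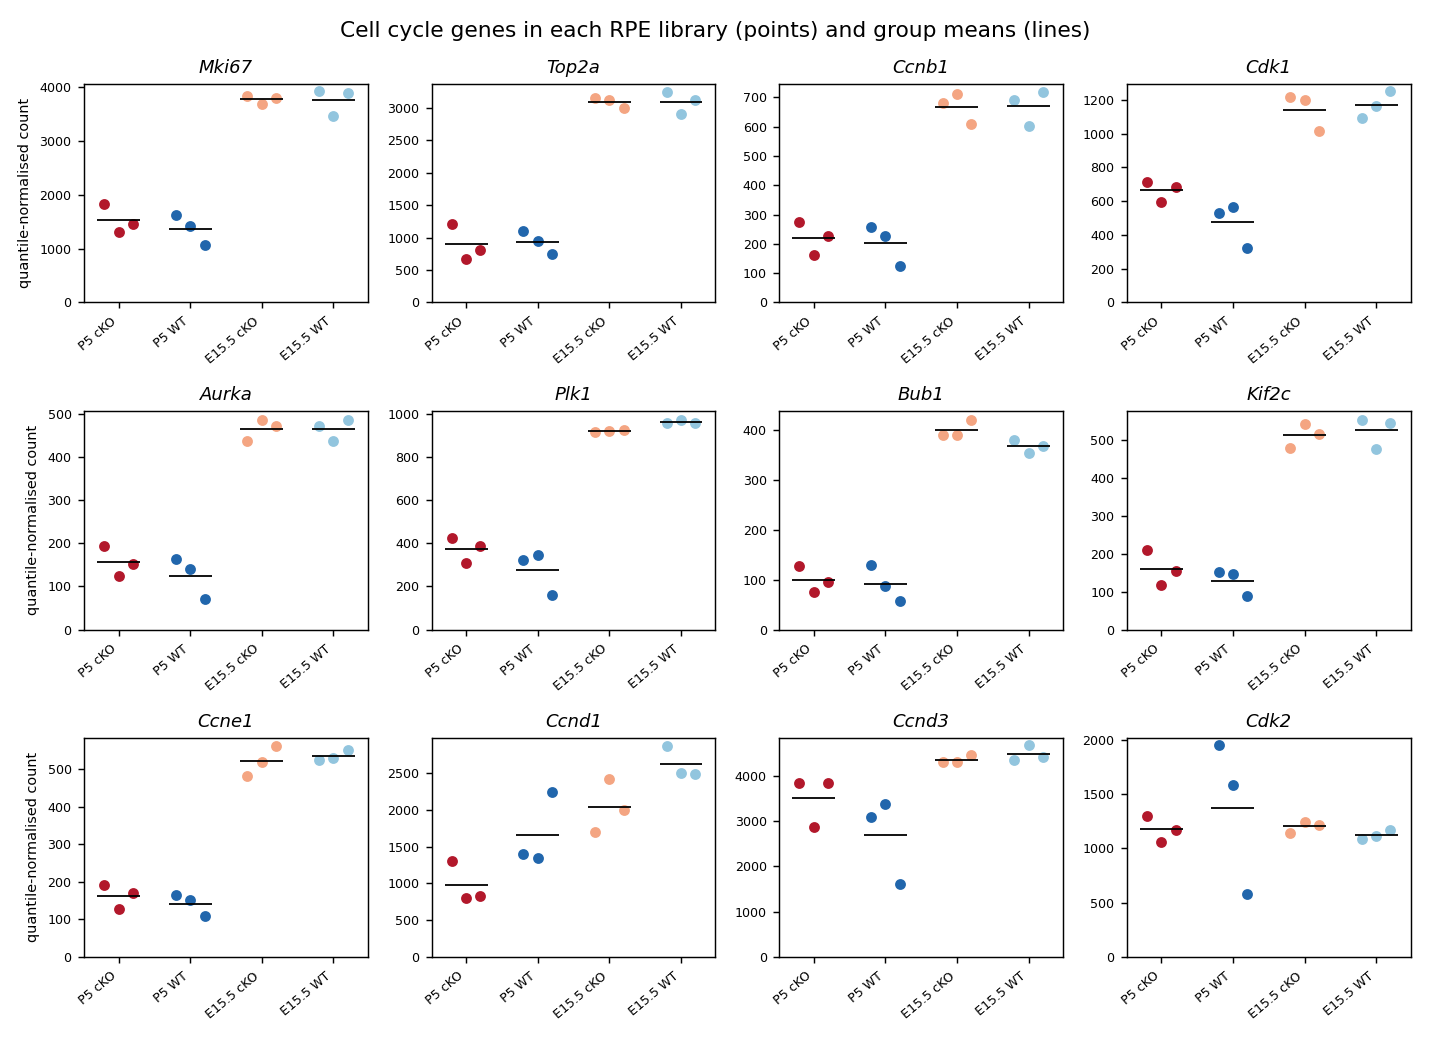
Quantile-normalised count of 12 of the 40 genes in each of the 12 libraries (points, linear axes that start at 0), by group, with the group means as lines. For Mki67, Top2a, Ccnb1, Cdk1, Aurka, Plk1, Bub1, Kif2c and Ccne1 all P5 libraries lie below all E15.5 libraries. For Ccnd3 they do too but lie closer. For Ccnd1 the ages stand apart only within each genotype, and Cdk2 overlaps.

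At P5 the 40 genes went up and down together from library to library. Of the cKO libraries, replicate 1 held the highest value of its group for 36 of the 40 genes and replicate 2 the lowest for 36. Of the WT libraries, replicate 1 held the highest for 32 genes and replicate 3 the lowest for 35. The mean log2 value over the 40 genes was 8.80, 8.09 and 8.39 in the P5 cKO libraries and 8.70, 8.49 and 7.94 in the P5 WT libraries, against 9.72 to 9.83 in the 6 E15.5 libraries. The 40 genes had a median SD of log2 values within a group of 0.369 in P5 cKO and 0.432 in P5 WT, against 0.067 in E15.5 cKO and 0.090 in E15.5 WT. Over all genes tested it was 0.232 and 0.317, against 0.116 and 0.105. The division genes were more spread than the median gene at P5 and less spread at E15.5.

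Markers of some other cell types moved with that order, and others did not. The mean log2 value of 16 photoreceptor markers was 7.26, 10.96 and 9.82 in the P5 cKO libraries and 7.24, 8.52 and 11.65 in the P5 WT libraries, against 5.67 to 5.72 at E15.5. In both genotypes the P5 library with the most photoreceptor signal had the lowest division genes, and the one with the least had the highest. Summed, these markers ranged from 3630 to 57419 in P5 cKO and from 3596 to 113903 in P5 WT libraries, against 800 to 807 in E15.5 cKO and 800 to 832 in E15.5 WT. At E15.5, 14 of the 16 lay at the floor in every cKO library and 13 in every WT library, rhodopsin among them. Markers of mesenchyme ran the other way, with mean log2 values of 12.99, 11.81 and 12 in P5 cKO and 12.85, 12.44 and 11.88 in P5 WT libraries, and 12 endothelium markers with 11.15, 10.22 and 10.75 in P5 cKO and 11.52, 11.25 and 10.46 in P5 WT libraries. Summed, the endothelium markers ranged from 16621 to 32487 in P5 cKO and 20961 to 42138 in P5 WT, against 9674 to 11904 in E15.5 cKO and 10421 to 11650 in E15.5 WT libraries, and none lay at the floor. The 10 macrophage and microglia markers averaged 8.55, 7.59 and 7.74 in P5 cKO and 8.66, 8.31 and 7.22 in P5 WT libraries. They summed to 3083 to 5750 in P5 cKO and 2224 to 6296 in P5 WT, against 2186 to 2449 in E15.5 cKO and 2050 to 2558 in E15.5 WT libraries. Skeletal muscle markers averaged 11.74, 11.68 and 10.36 in P5 cKO and 11.54, 10.02 and 9.30 in P5 WT libraries, an order like that of the division genes in WT only. Lens markers (8.42, 8.05 and 8.99 in P5 cKO, 7.2, 8.50 and 5.83 in P5 WT) and Müller glia and astrocyte markers (12.53, 12.44 and 12.97 in P5 cKO, 12.57, 13.45 and 12.57 in P5 WT) did not follow that order. The 15 RPE markers averaged 11.65, 11.88 and 12.18 in P5 cKO and 12.47, 12.6 and 11.34 in P5 WT libraries. That is not the order of the division genes in either genotype, though replicate 3 was the lowest P5 WT library for both sets. Between the ages, 4 of 12 mesenchyme markers fell in cKO RPE, and 4 fell and 1 rose in WT RPE. Of 12 skeletal muscle markers, 3 fell and 1 rose in cKO RPE, and 4 fell in WT RPE. Of all genes tested, 26.1% fell and 17.6% rose in cKO RPE, and 23.2% fell and 15% rose in WT RPE. In cKO and WT RPE, 11 and 12 of 15 RPE, 8 and 11 of 12 endothelium and 10 and 10 of 16 photoreceptor markers rose. So did 9 and 0 of 11 lens and 2 and 1 of 10 macrophage and microglia markers, and none of these 5 lists held a fall. Of 7 Müller glia and astrocyte markers, 6 rose in each genotype and 1 fell in cKO RPE. Of 8 markers of surface epithelium, 6 fell and 2 rose in each genotype. They summed to 9851 to 20558 in P5 cKO and 3976 to 14393 in P5 WT, against 12865 to 18068 in E15.5 cKO and 10753 to 17165 in E15.5 WT libraries, with Epcam and Trp63 at the floor in all P5 libraries. Of 6 erythroid markers 6 fell in cKO RPE and 5 in WT RPE. They summed to 5889 to 7175 in P5 cKO and 4594 to 11553 in P5 WT, against 20292 to 27721 in E15.5 cKO and 21305 to 24563 in E15.5 WT libraries, with Hbb-y at the floor in all P5 libraries. The part of these cell types in the fall with age was not tested. A fit with the mean photoreceptor value as a term cannot test it. That mean did not overlap between the ages and hardly varied at E15.5, so the term is confounded with age. In that fit 29 genes fell and 1 rose in cKO RPE, with a median of -0.73, and 31 fell and 1 rose in WT RPE, with a median of -0.87. The genes that lost their call in it were Ccnd2, Ccnb2, Cdk1, E2f1, Aurkb, Kif20a, Prc1 and Anln in cKO RPE and Ccnd1, Ccnd3, Ccnb2, Cdc25b, E2f1, Mybl2, Kif20a and Prc1 in WT RPE. The gene that rose was Cdk2, at 0.96 (adjusted p = 0.0117) and 1.05 (adjusted p = 0.00692). Without P5 WT replicate 3 and P5 cKO replicate 2, the 2 libraries with the most photoreceptor signal, an alternative chosen after the data were seen, 36 genes fell in cKO RPE, and 39 fell and 1 rose in WT RPE, with medians of -1.22 and -1.21. The share of all genes called in these 2 fits is not given here, so the counts cannot be set against it.

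**Figure D4:**
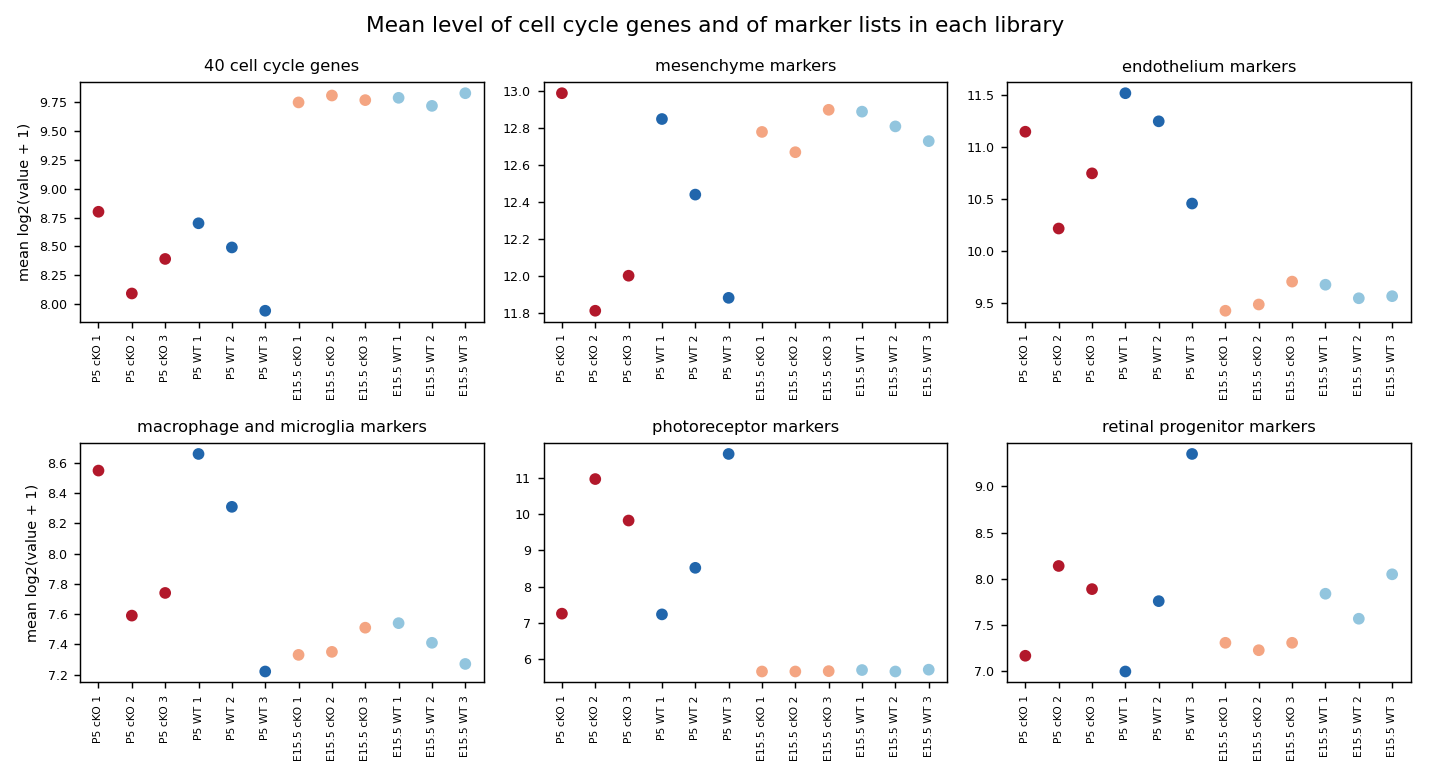
Mean log2 value of the 40 division genes and of marker lists of other cell types in each library. At P5 the libraries with high photoreceptor means (10.96 in cKO replicate 2, 11.65 in WT replicate 3) have the lowest division gene means (8.09 and 7.94).

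Between genotypes, no division gene was called at either age. At E15.5, 0 of 40 genes were called by limma and 0 had an unadjusted p under 0.05, where 0.00739% of all genes were called and 0.362% had such a p. The median log2 fold change, cKO over WT, was 0.00, with values between -0.37 and 0.20. The intervals were narrow enough to place 39 of the 40 genes within a 2-fold difference (95% confidence interval of the fit). Mki67 had an interval of -0.34 to 0.36. The fit uses 1 spread per gene for both ages, although the E15.5 libraries spread less than the P5 ones. The P5 spread thus enters the E15.5 p-values, and their small number under 0.05 does not show that the genotypes are alike. With only the E15.5 libraries in the fit, 0 of the 40 genes were called as well. Bub1 was the gene with all E15.5 cKO libraries above all WT libraries, and Ccnd1 and Plk1 were the genes with all below, 3 of 40 where 5.10% of all genes did not overlap. With the mean of retinal progenitor markers as a term, the E15.5 median was -0.20. With that term 39 of the 40 values were negative, against 22 without it, and none was called. Under the other settings the median lay between -0.04 and 0.03. The marker mean was lower in each E15.5 cKO library than in each E15.5 WT library, so the term is confounded with genotype there.

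At P5, 0 of 40 genes were called by limma and 3 had an unadjusted p under 0.05, where 0.244% of all genes were called and 7.68% had such a p. The median was 0.08, with values between -0.76 and 0.52, and its sign depended on the setting. It was -0.15 without P5 WT replicate 3, -0.12 without P5 cKO replicate 1, -0.11 with library weights and -0.06 with the retinal progenitor mean as a term. It was 0.25 without P5 cKO replicate 2 and 0.28 without P5 WT replicate 1. The intervals placed 34 of the 40 genes within a 2-fold difference, in a fit that uses 1 spread per gene for both ages although the P5 libraries spread more. The cKO and WT libraries did not overlap for Cdk1, above, and Ccnd1, below, 2 of 40 where 6.18% of all genes did not overlap.

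The genes with the lowest unadjusted p at P5, Ccnd1, Cdk1 and Bub1b, were singled out after their values were seen. Ccnd1 was 1302, 799 and 834 in P5 cKO libraries, against 1405, 1344 and 2248 in P5 WT libraries. Each cKO library lay below each WT library, the log2 fold change was -0.76 ± 0.23 and the adjusted p 0.401. Ccnd1 was also 1703, 2422 and 2005.5 in E15.5 cKO libraries, against 2880.3, 2513 and 2490.3 in E15.5 WT libraries. There too the libraries did not overlap, with a log2 fold change of -0.37 ± 0.23 (adjusted p = 1). Ccnd1 is also made by retinal progenitors, whose 15 markers averaged 7.17, 8.14 and 7.89 (mean log2) in P5 cKO and 7.0, 7.76 and 9.35 in P5 WT libraries, and 7.31, 7.23 and 7.31 in E15.5 cKO against 7.84, 7.57 and 8.05 in E15.5 WT libraries. Summed, these markers ranged from 7608 to 13956 in P5 cKO and 5323 to 24399 in P5 WT, and from 6649 to 6918 in E15.5 cKO and 6119 to 7809 in E15.5 WT libraries. Fgf15 and Atoh7 lay at the floor in all P5 libraries and Dll3 in all E15.5 libraries. With the mean of these markers as a term, Ccnd1 was at -0.72 (adjusted p = 0.151) at P5 and at -0.30 (adjusted p = 0.633) at E15.5. Without P5 WT replicate 3, the P5 library with the most Ccnd1 and the highest retinal progenitor mean, the P5 value was -0.53 (adjusted p = 0.381). Without that library and P5 cKO replicate 2 it was -0.4 (adjusted p = 0.795).

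Cdk1 was 712.5, 594.5 and 684 in P5 cKO libraries, against 532, 568 and 322 in P5 WT libraries, with all cKO above all WT libraries. Its log2 fold change was 0.52 ± 0.19 (adjusted p = 0.517), and 0.27 without P5 WT replicate 3 (adjusted p = 0.41). Without P5 WT replicate 3 and P5 cKO replicate 2 it was 0.34 (adjusted p = 0.434). Bub1b was 329, 169 and 226 in P5 cKO libraries, against 363, 296 and 329 in P5 WT libraries. The groups overlapped, and the log2 fold change was -0.50 ± 0.21 (adjusted p = 0.603). It was -0.49 without P5 WT replicate 3 (adjusted p = 0.439). Without P5 WT replicate 3 and P5 cKO replicate 2 it was -0.27 (adjusted p = 0.904).

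**Figure D5:**
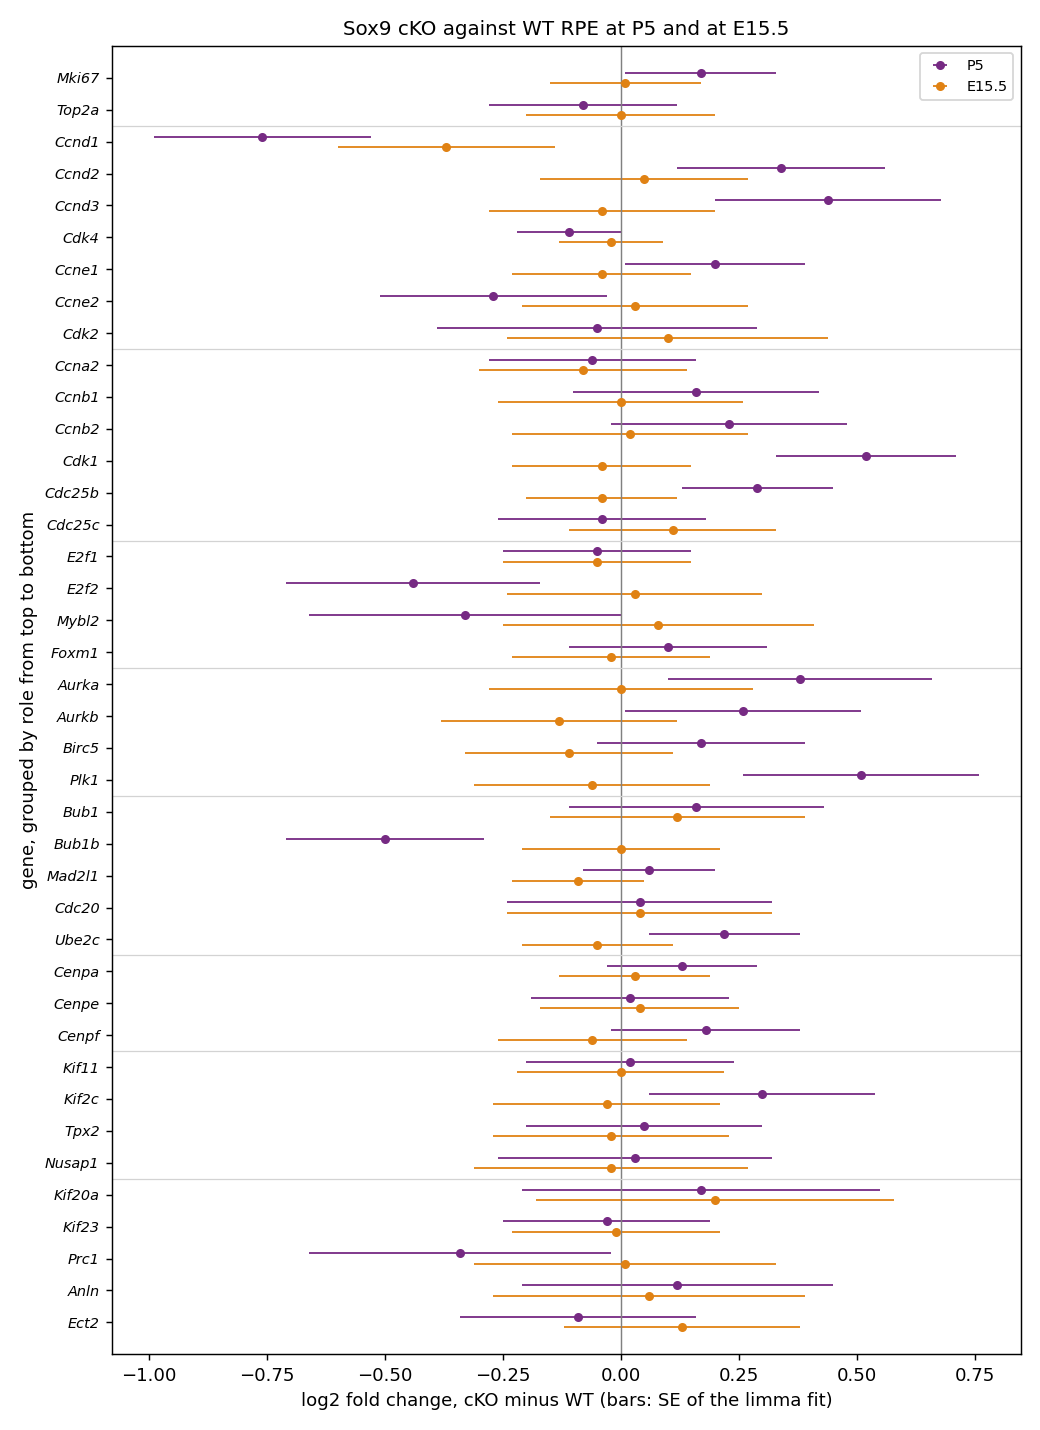
Log2 fold change of each of the 40 genes, cKO over WT, at P5 and at E15.5, with the standard error of the limma fit as bars. Values lie between -0.37 and 0.20 at E15.5 and between -0.76 (Ccnd1) and 0.52 (Cdk1) at P5, and none passed the test.

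Whether the fall with age differed between genotypes was tested as the interaction. By limma 0 of 40 genes were called and 0 had an unadjusted p under 0.05, where 0.0592% of all genes were called and 2.65% had such a p. The median was 0.05, with values between -0.49 (Bub1b) and 0.57 (Plk1). The intervals placed 22 of the 40 genes within a 2-fold difference, while the others had intervals that reached beyond it.

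Other genes of the cell cycle fell as well. Of 181 listed that are not among the 40, 173 were in the table and tested. In cKO RPE 126 fell and 2 rose, and in WT RPE 124 fell and 3 rose, with medians of -0.91 and -0.92. Over all genes tested, 26.1% fell and 17.6% rose in cKO RPE, and 23.2% fell and 15% rose in WT RPE. None of the 173 was called between genotypes at either age by limma. An unadjusted p under 0.05 was reached by 11 of the 173 at P5, where 7.68% of all genes had such a p, and by 0 at E15.5, where 0.362% did. Kinesins and further spindle genes fell in 26 of 26 cases in cKO RPE and 25 of 26 in WT RPE. Aspm, a spindle pole protein, was called lower in WT RPE at -1.84 ± 0.28 (adjusted p = 0.000625). Kinetochore and centromere genes fell in 29 of 32 cases in cKO RPE and 28 of 32 in WT RPE. Nsl1 of the MIS12 complex was at -1.89 ± 0.17 (adjusted p = 2.98e-05) in WT RPE. Further checkpoint and passenger genes fell in 15 of 18 cases in cKO RPE and 16 of 18 in WT RPE, among them Fbxo5, the inhibitor EMI1 of the anaphase-promoting complex, at -1.94 ± 0.27 (adjusted p = 0.000337) in WT RPE. Condensin and cohesin genes fell in 15 of 19 cases in each genotype, led by Ncapg of condensin I at -2.29 ± 0.24 (adjusted p = 6.52e-05) in WT RPE. Centriole duplication genes fell in 7 of 12 cases in each genotype, Stil the most, at -1.76 ± 0.28 (adjusted p = 0.000772) in WT RPE. In cKO RPE 1 gene of that list, Cenpj, rose, at 0.66. That call was lost without any of the E15.5 libraries (0.62 to 0.71) and with the photoreceptor term (0.42, adjusted p = 0.286), among other settings. Subunits and partners of the anaphase-promoting complex fell in 10 of 13 cases in each genotype but by less, with medians of -0.43 in cKO RPE and -0.39 in WT RPE.

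Of 26 further regulators, 15 fell in cKO RPE and 17 fell and 1 rose in WT RPE. Of all genes tested, 26.1% and 23.2% fell and 17.6% and 15% rose. Skp2, the F-box protein that sends the inhibitor p27 to degradation, stood at 187, 84.8 and 125 in P5 cKO and 115, 120.2 and 123 in P5 WT libraries, against 1147, 1065 and 1056 in E15.5 cKO and 977, 1101 and 1178 in E15.5 WT libraries. It fell by more than any of the 40 genes, 8.61-fold in cKO RPE (-3.11 ± 0.23, adjusted p = 7.23e-06) and 9.0-fold in WT RPE (-3.17 ± 0.23, adjusted p = 8.37e-06). Ccnf, cyclin F of an F-box complex, fell by 2.24 and 2.58 on the log2 scale. The CDK inhibitors were mixed: of 5 tested, 1 fell in cKO RPE, and 2 fell and 1 rose in WT RPE. These counts are too small to set apart from the shares of all genes. Cdkn1b, which encodes p27, was 983, 1396 and 1258 in P5 cKO, against 1201, 930 and 899.8 in E15.5 cKO libraries, a log2 fold change of 0.26 ± 0.17 (adjusted p = 0.238). In WT RPE Cdkn1b was 1406, 1627 and 1940.1 at P5, against 1134, 982 and 941 at E15.5, where it rose with a log2 fold change of 0.69 ± 0.17 (adjusted p = 0.00881). That WT call was lost with the photoreceptor term, which is confounded with age, at 0.30. Its difference between genotypes at P5 was -0.45 ± 0.17 (adjusted p = 0.547). Cdkn1c, which encodes p57, fell by 1.73 in cKO RPE and by 1.81 in WT RPE on the log2 scale. Of 22 cyclins and kinases outside the core cycle, 8 fell and 1 rose in cKO RPE and 4 fell and 1 rose in WT RPE. The medians were -0.10 and -0.19, near those of all genes, and the counts that fell were not far from the shares of all genes. Cdk19, a kinase of the Mediator complex, rose in WT RPE (0.76 ± 0.22, adjusted p = 0.0184), and by 0.47 without P5 WT replicate 3. That call was lost without E15.5 WT replicate 3 (0.75, adjusted p = 0.0574), with only the libraries compared (0.76, adjusted p = 0.0745) and with the photoreceptor term (0.19, adjusted p = 0.393). The neuronal kinase gene Cdk5 rose in cKO RPE (0.66 ± 0.20, adjusted p = 0.0206), a call lost without P5 cKO replicate 2 (0.47) or 3 (0.64) or E15.5 cKO replicate 3 (0.61), or with the photoreceptor term (0.29, adjusted p = 0.314).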

How the data were processed

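Poly(A) RNA of mouse RPE was sequenced in 12 libraries, placed in 4 groups of 3 by their titles, where "kd" libraries are the cKO ones. Per the submitters' processing notes, TopHat2 2.0.10, HTSeq and the mm10 genome were used. For annotation release, strand setting and gene filter, the sources used here say nothing. The authors deposited 1 signal value per gene and library, counts quantile-normalised with values under 50 set to 50: all 12 columns held the same sorted values, 1376 of them (9.87%) at 50. Since each library was forced onto 1 distribution, depth and counting error are unknown, and a change shared by most genes would be hidden.

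Genes above 50 in at least 3 libraries were tested, 13523 of 13942. On log2(value + 1), limma 3.58.1 in R 4.3.3 fitted 1 mean per group over all 12 libraries, with moderated variances and a mean-variance trend. All tests are two-sided, and a gene was called at a Benjamini-Hochberg adjusted p under 0.05 over all genes tested. With 3 libraries against 3, an exact permutation test of a single gene cannot go below 0.1. The script was tested on simulated data. The 40 genes, the other lists and the tests were chosen with earlier results of these data known. Named in full are genes not called lower with age and up to 3 genes per role with the largest called change in WT RPE. Of these, 1 or more per role are given by library and the rest by group mean, a choice made after the values were seen. Further pathway genes are the most changed of each list in WT RPE, chosen in part. Positions come from GENCODE M21 and promoters from RefSeq (GRCm38.p6). Alternatives changed the pseudocount, filter, libraries, weights, trend, block, centring or added a marker term. A marker of the erythroid list is not reported here, and its values are left out of that list.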

Additional observations from a re-analysis of the deposited data

How the results depend on the processing

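No alternative changed the count of division genes called by more than 1.5 times. With age, 30 to 39 of the 40 were called in cKO RPE and 32 to 40 in WT RPE, both lowest with the photoreceptor term. Leaving out 1 library gave 35 to 39 in each genotype. The share of all genes called under each alternative is not given here. Between genotypes and in the interaction the count was 0 under every setting run; a fit of only the libraries compared cannot give an interaction and was not run. Deviations from the group means of same-numbered libraries of the 2 genotypes correlated at -0.02, 0.27 and -0.02 at E15.5 and 0.78, -0.30 and 0.19 at P5. Libraries of unlike number correlated at -0.22 to 0.22 at E15.5 and -0.74 to 0.71 at P5. These values do not decide whether the numbers pair the libraries. With the replicate block, 37 genes were called in cKO RPE, 38 in WT RPE and 0 in the other comparisons.

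Of the single-gene values, 2793 kept their side of the threshold and direction, 101 lost their call, 8 gained a call and 10 turned. Those that turned were of genes not called. Cdk2 in cKO RPE turned with recentred libraries (0.07), with the photoreceptor term (0.96), with the retinal progenitor term (0.27) and without P5 cKO replicate 2 (0.04). It turned too without P5 WT replicate 3 and P5 cKO replicate 2 together (0.04). Cdk2 in WT RPE turned without P5 WT replicate 1 (-0.22) or 2 (-0.08), Ccnd3 and Cdc25b in cKO RPE with the photoreceptor term (0.33 and 0.10) and Sox9 at E15.5 without E15.5 WT replicate 1 (0.02). Over all left-out libraries these ranged from -0.11 to 0.04 for Cdk2 in cKO RPE, -0.22 to 0.65 in WT RPE and -0.13 to 0.02 for Sox9. The causes were not tested. Recentring moved the median of all genes with age by 0.1. The depth is unknown, and values near the floor of 50 understate change.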
